A study of Caenorhabditis elegans with 24 samples.

Results

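Caenorhabditis elegans carries large families of secreted proteins related to Hedgehog and of membrane proteins related to Patched. A total of 56 such genes were described here, of 66 whose symbols begin with wrt- (warthog), grd- (groundhog), grl- (ground-like), ptc- (Patched) or ptr- (Patched-related) and a digit. The 56 reached a mean of at least 1 CPM (reads of a gene scaled to a fixed library total) in at least 1 of 8 groups of worms, in a table of 16927 genes. They comprised 9 warthog, 10 groundhog, 13 ground-like, 2 Patched and 22 Patched-related genes. The 10 genes left out were grd-7, grd-11, grd-15, grl-2, grl-9, grl-12, grl-18, grl-20, grl-32 and ptc-2. The highest group mean was 0.997 CPM for grd-7, just under the limit, and 1.37 CPM for grl-17, just above it.

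In insects and vertebrates a secreted Hedgehog protein binds Patched, a membrane protein with a sterol-sensing domain, and thereby releases the signalling protein Smoothened. The nematode has neither a true Hedgehog nor Smoothened, and its Hedgehog-related and Patched-related proteins are known mainly from the epidermis, the cuticle and its renewal at each molt, and the transport of lipids. Most warthog, groundhog and ground-like genes have no assigned receptor.

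Messenger RNA of whole worms was measured in 24 libraries, 3 replicates in each of 8 groups. The groups were the wild-type strain N2 and VC3201, given as an atfs-1 mutant by the labels, each on control RNAi bacteria, on cco-1 RNAi, on elt-2 RNAi, or on cco-1 and elt-2 RNAi together. A subunit of the respiratory chain's last complex is made by cco-1. Intestinal genes are driven by the GATA factor ELT-2, and the stress response of mitochondria by the factor ATFS-1. Worms were fed from the first larval stage for 2.5 days at 20 °C and collected as fourth-stage larvae or young adults. Every elt-2 and mixed group rested on a partial dose of elt-2 bacteria, which the labels give as 50% and the authors' key sheet as 25%. The dose of cco-1 bacteria was partial as well, given as 50% by the labels in every cco-1 and mixed group. Whether the replicates came from separate cultures is not in the labels, so p-values measure only the spread between these libraries. Comparisons with the same control group share its 3 libraries.

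The targeted genes moved as labelled. The level of cco-1 was 292 ± 35.6 CPM (SD, n = 3) in N2 on control and 128 ± 5.85 CPM on cco-1 RNAi, and 346 ± 11.1 and 125 ± 11.3 CPM in VC3201. For elt-2 the levels were 17.3 ± 1.697 and 10.5 ± 0.958 CPM in N2, and 16.95 ± 0.673 and 10.45 ± 4.93 CPM in VC3201, where 1 of 3 elt-2 RNAi libraries was at 15.98 CPM. Reads from elt-2 RNA of the RNAi bacteria, if any, cannot be told apart from the worm's own, so these values may not measure the knockdown alone. The level of atfs-1 was 70.98 CPM or more in N2 and 29.3 CPM or less in VC3201. One CPM corresponded to 8 to 38 sequenced reads, depending on the library. Changes are log2 fold changes of CPM + 1, which understate the change of low genes. The test was limma's over 14561 genes, and a call needed an adjusted p (Benjamini-Hochberg) under 0.05. Because whole worms were used, fewer cells of a type and less RNA per cell cannot be told apart in any value below.

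In N2 on control the family levels spanned a wide range. Per kilobase of exon, the groundhog genes grd-3 and grd-5 were the most abundant members, at 278 and 214 CPM per kb. The Patched homolog ptc-1, known for its role in the germ line, followed at 126 CPM per kb, and ptr-2, known for the permeability barrier of the embryo, at 96.0 CPM per kb. The highest warthog gene was wrt-10 at 10.3 CPM per kb and the highest ground-like gene was grl-16 at 33.2 CPM per kb. The lowest member was ptr-17 at 0.186 CPM per kb. The medians were 3.56 CPM per kb for warthog, 14.4 for groundhog, 3.81 for ground-like and 2.05 for Patched-related genes.

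Members were spread over all 6 chromosomes of WBcel235. Chromosome V held 17 of the 56 (30.4%) against 19.2% of the tested genes with a position, and chromosome III held 3 (5.4%) against 15.6%. There were 5 pairs of neighbouring members less than 20 kb apart. The groundhog genes grd-13 (chrIV:3438312-3439507), grd-3 (chrIV:3439655-3440453) and grd-10 (chrIV:3441055-3441841) lay in a row on the plus strand with gaps of 148 and 602 bp. On chromosome X, grd-14 (chrX:8500021-8501037) was followed on the same strand by grd-4 (chrX:8501222-8502288) after 185 bp. The warthog genes wrt-1 (chrII:7530996-7533246, plus strand) and wrt-10 (chrII:7533262-7534563, minus strand) faced each other across 16 bp. The remaining pair was ptr-21 and grl-16 on chromosome I, 15464 bp apart.

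The first comparison set VC3201 against N2 on control bacteria, and most of the changed members were lower in the mutant strain. A total of 32 of 56 members were lower and 4 were higher, where 22.6% of all tested genes were lower and 26.7% higher. The median change of the members was -0.30, against 0.03 over all tested genes. The lower members included 7 of 9 warthog and 10 of 13 ground-like genes, 4 of 10 groundhog genes, both Patched genes and 9 of 22 Patched-related genes.

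The strongest decrease was that of grl-16, a ground-like gene linked to axon guidance. Its CPM was 45.1, 66.6 and 55.6 in the N2 control libraries and 7.63, 11.3 and 11.4 in those of VC3201, a log2 change of -2.36 (SE 0.133, limma adjusted p = 2.13e-14). The groups were far apart. The ground-like gene grl-7 stood at 3.57, 10.5 and 6.98 CPM in N2 and at 0.850, 0.826 and 0.808 CPM in VC3201 (log2 change -2.03, limma adjusted p = 6.85e-08). Its 3 N2 libraries were far apart among themselves, while its VC3201 libraries lay close together just under 1 CPM. Those VC3201 values rested on only 8, 8 and 6 reads.

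Among the warthog genes, wrt-10 read 10.2, 12.2 and 12.4 CPM in N2 and 2.42, 2.12 and 2.24 CPM in VC3201 (log2 change -1.95). The gene wrt-4 read 2.99, 10.3 and 6.86 CPM in N2 and 0.744, 1.21 and 1.05 CPM in VC3201 (log2 change -1.83). Neither pair of groups overlapped, although on the log2 scale wrt-4 had the largest SD of all members among the N2 control libraries (0.763). The groundhog gene grd-6 changed by -1.69 and ptr-4, whose protein is known from the matrix that shapes the new cuticle, by -1.64. The 4 higher members were grl-8 (log2 change 0.63), grd-5 (0.26), grd-3 (0.26) and grd-10 (0.25). The call of grd-10 (adjusted p = 0.0458) was lost without N2 control replicate 1 (0.24) or 2 (0.21), or without VC3201 control replicate 2 (0.16) or 3 (0.27), and that of grd-3 without N2 control replicate 1 (0.21) or VC3201 control replicate 3 (0.23).

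**Figure D1:**
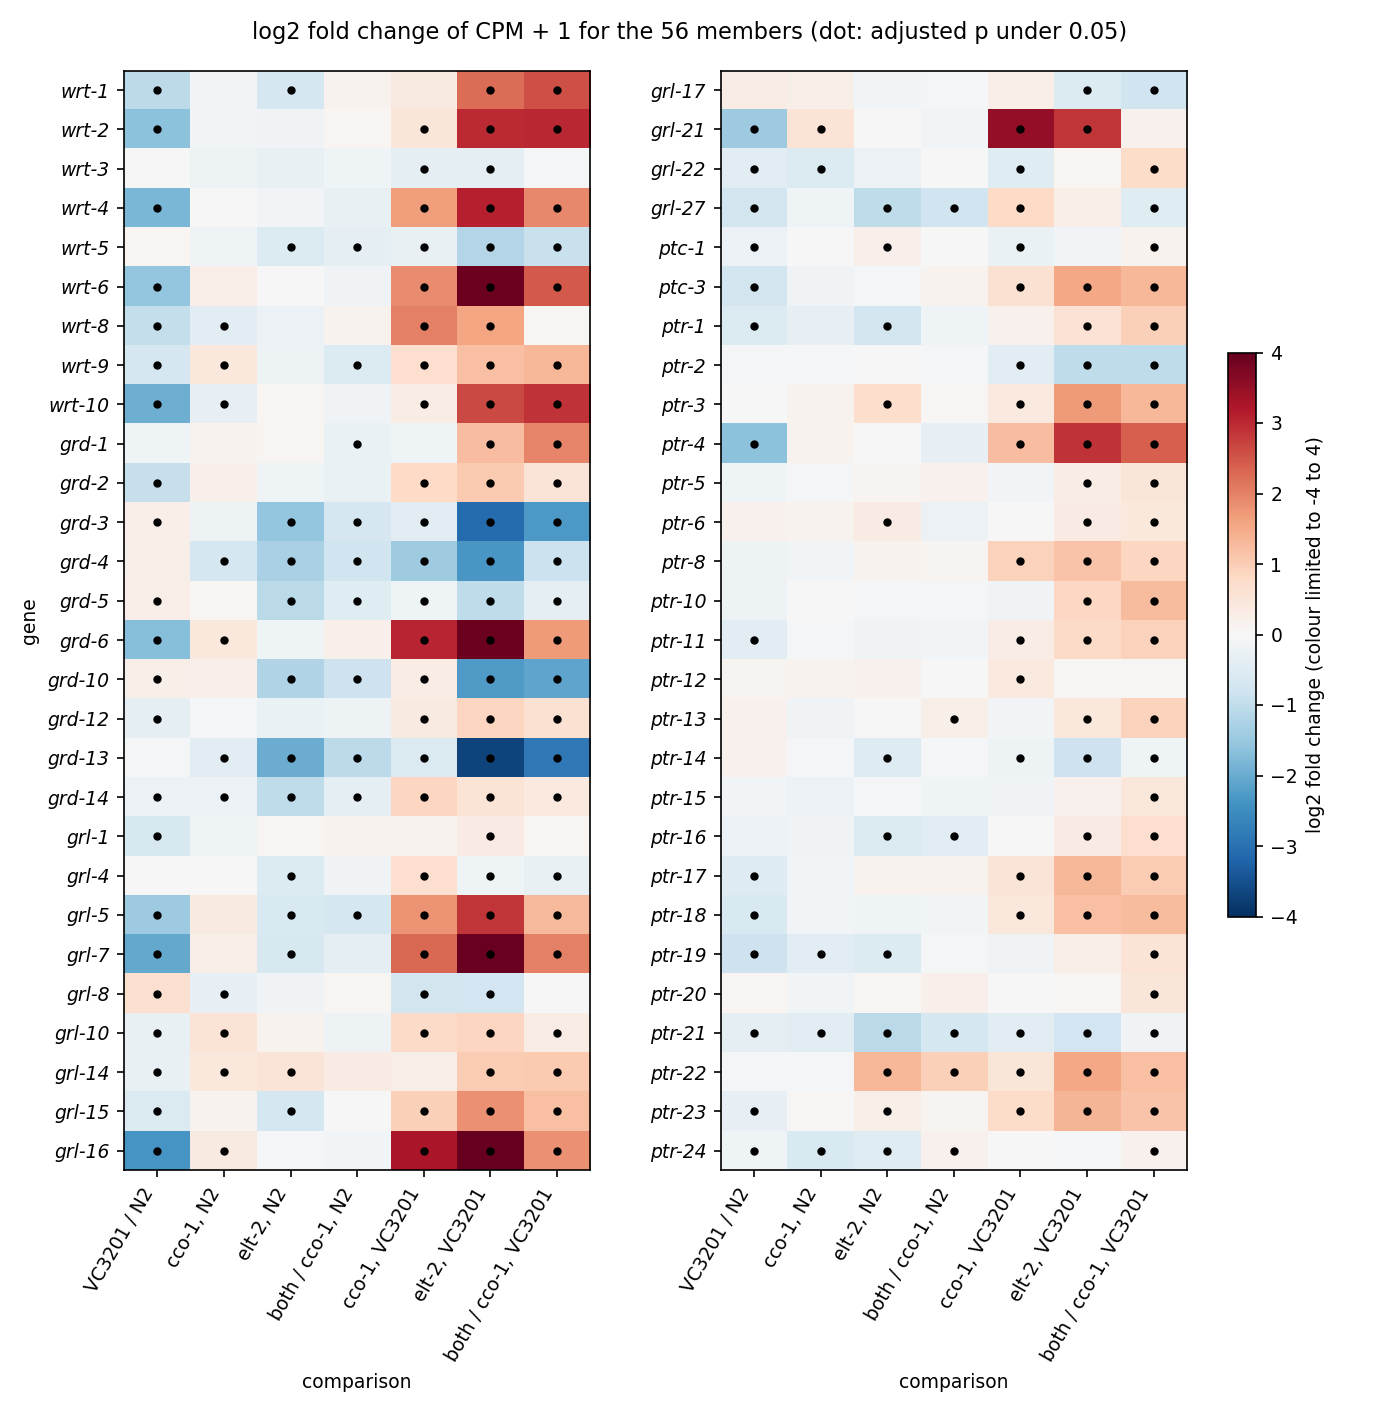
Log2 fold change of CPM + 1 of each of the 56 genes (rows) in 7 comparisons (columns), red for higher and blue for lower, with colours limited to the range -4 to 4. Black dots mark genes called at an adjusted p under 0.05 by limma. The column for elt-2 RNAi in VC3201 holds 35 higher and 13 lower genes, and the column for the strains on control 4 higher and 32 lower genes.

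In VC3201, elt-2 RNAi raised 20 of 32 Hedgehog-related genes over their level on control bacteria and lowered 10. Of the 56 members, 35 were higher and 13 lower than on control bacteria, and 36.4% of all tested genes were higher and 49.4% lower. Among the higher, grd-12, ptr-10 and ptr-17 reached a mean of 1 CPM only in VC3201 on elt-2 RNAi and on both RNAi. Because they became members only through groups in which they were high, their calls are not independent of the filter. The shares over all tested genes rest on the same filter. With the quantile normalization partly undone, 43.6% of all tested genes were higher and 44.1% lower, which applies wherever this comparison is named below. On the deposited scale the members' median was 0.67, where the median over all tested genes was -0.18. Among the Hedgehog-related families, 7 of 9 warthog, 5 of 10 groundhog and 8 of 13 ground-like genes rose. The same RNAi in N2 gave 6 higher and 19 lower members, with 26.2% of all tested genes higher and 21.8% lower, and medians of -0.15 for the members and 0.02 for all tested genes.

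The gene grl-16 went from the 7.63 to 11.4 CPM of the VC3201 controls to 240, 311 and 306 CPM on elt-2 RNAi (log2 change 4.70, SE 0.133, limma adjusted p = 5.32e-23). In N2 the same RNAi left it at 49.9, 53.0 and 54.4 CPM (log2 change -0.07, adjusted p = 0.691). All 3 elt-2 libraries of VC3201 were thus above all 12 libraries of N2, none of which passed 83.0 CPM. The difference of the 2 changes, the interaction of elt-2 RNAi and strain, was 4.77 (SE 0.187, limma adjusted p = 2.59e-18).

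The warthog gene wrt-6 read 1.71, 1.77 and 1.30 CPM in VC3201 on control and 32.9, 37.5 and 45.3 CPM on elt-2 RNAi (log2 change 3.92, limma adjusted p = 2.01e-16). In N2 it read 3.89, 10.1 and 7.66 CPM on control and 5.33, 7.37 and 7.59 CPM on elt-2 RNAi (log2 change -0.02, adjusted p = 0.955). It was lowest in VC3201 on control, and all 3 VC3201 libraries with elt-2 RNAi were above all 12 of N2. With both RNAi in VC3201 it was higher still, at 52.9, 51.2 and 50.5 CPM. The groundhog gene grd-6 stood at 3.51, 3.31 and 4.66 CPM on control and 62.4, 70.0 and 81.5 CPM on elt-2 RNAi in VC3201 (log2 change 3.91), with a change of -0.16 in N2.

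The gene grl-7 rose by 3.96 on the log2 scale in VC3201 and fell in N2, by 0.65. Its N2 values, 3.57, 10.5 and 6.98 CPM on control and 2.09, 6.43 and 3.76 CPM on elt-2 RNAi, overlapped. The warthog genes wrt-4 and wrt-2, the latter known from the epidermis, rose in VC3201 by 3.10 and 3.00. In N2 their changes were -0.11 and -0.16. The gene wrt-2 overlaps the protein-coding gene pccb-1, and strandedness of the counting is not given in the sources used here.

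There were 7 members that were lower in N2 and higher in VC3201 on elt-2 RNAi, namely grd-14, grl-5, grl-7, grl-15, ptr-1, ptr-16 and wrt-1. Of all 14561 tested genes, 2.16% had that pair of calls. The gene wrt-1 read 2.99, 5.85 and 4.42 CPM on control and 1.21, 3.49 and 2.61 CPM on elt-2 RNAi in N2, and 1.23, 2.04 and 1.56 CPM and then 11.9, 11.1 and 10.5 CPM in VC3201. The N2 groups overlapped for this gene and the VC3201 groups lay wide apart. Tested as interactions, 36 members had a higher and 10 a lower response to elt-2 RNAi in VC3201 than in N2, against 30.7% and 42.1% of all tested genes. With the quantile normalization partly undone these backgrounds were 39.4% and 36.6%, and the members 44 and 6. The members' median interaction was 0.88.

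**Figure D2:**
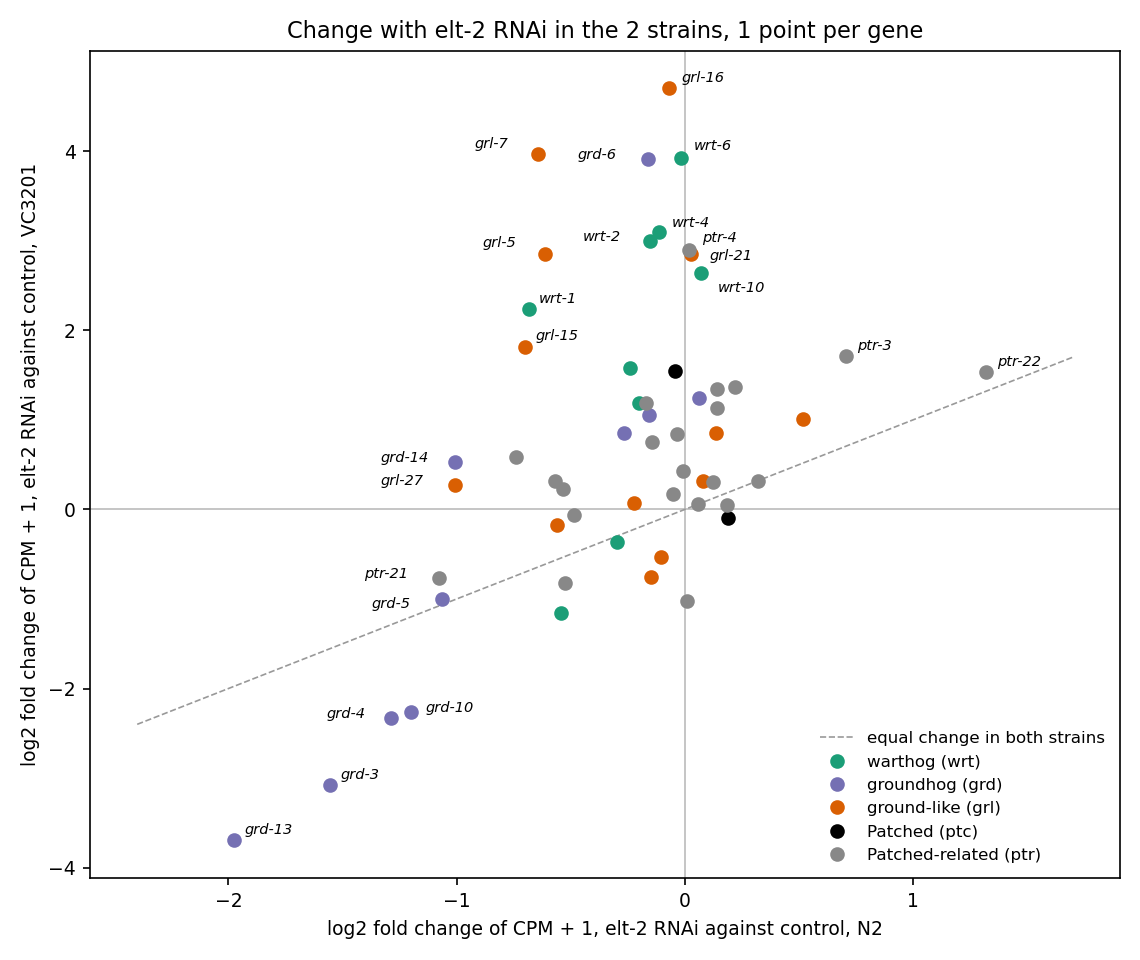
Log2 fold change of CPM + 1 with elt-2 RNAi in N2 (x axis) and VC3201 (y axis), 1 point per gene, coloured by family, with a dashed line of equal change. The warthog and ground-like genes at the top, such as grl-16 at 4.70, lie near 0 or below it in N2, and grd-13, grd-3, grd-4 and grd-10 lie at the lower left.

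Of the 56 members, 9 fell with elt-2 RNAi in both strains, a share near the 17.8% of all tested genes that did so. They were grd-3, grd-4, grd-5, grd-10, grd-13, grl-4, ptr-14, ptr-21 and wrt-5, the last known for a role in epidermal development. The steepest change was that of grd-13, from 25.9, 23.8 and 24.1 CPM to 5.33, 5.54 and 5.65 CPM in N2 (log2 change -1.98, SE 0.123). In VC3201 it went from 22.2, 22.9 and 24.6 CPM to 0.560, 0.7995 and 1.33 CPM (log2 change -3.69, limma adjusted p = 2.82e-21). The lowest of these values rested on 19, 27 and 46 reads.

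Its neighbour grd-3, the most abundant groundhog gene by mean CPM, fell from 179, 194 and 204 CPM to 74.6, 54.9 and 66.2 CPM in N2 (log2 change -1.56). In VC3201 it fell from 225, 227 and 236 CPM to 24.5, 25.4 and 29.2 CPM (log2 change -3.08). The third gene of that row, grd-10, changed by -1.20 in N2 and -2.26 in VC3201. All 3 genes of the chromosome IV row fell in both strains, and the decrease was larger in VC3201 for each of them (interactions -1.72, -1.52 and -1.06, limma adjusted p = 9.73e-10, 8.57e-12 and 1.85e-07).

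The neighbours on chromosome X did not move together in VC3201. The gene grd-4 went from 4.26, 4.04 and 4.39 CPM on control to 0.0845, 0.0220 and 0.0220 CPM on elt-2 RNAi, which rested on 2, 0 and 0 reads (log2 change -2.33). In the same libraries grd-14 went from 17.9, 18.0 and 17.0 CPM to 23.8, 25.6 and 28.6 CPM (log2 change 0.53). Both fell in N2, with log2 changes of -1.29 for grd-4 and -1.007 for grd-14. The facing pair wrt-1 and wrt-10 rose together in VC3201 (2.24 and 2.64), while in N2 wrt-1 fell by 0.68 and wrt-10 changed by 0.07.

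The gene grd-5 fell by 1.06 in N2 and by 1.00 in VC3201 (interaction 0.06, not called). The 5 members that rose in both strains were grl-14, ptr-3, ptr-6, ptr-22 and ptr-23, where 20.2% of all tested genes rose in both. The Patched-related gene ptr-22 had the largest increase in N2, from 1.34, 0.718 and 1.08 CPM to 4.39, 4.51 and 3.38 CPM (log2 change 1.32), and it changed by 1.53 in VC3201. The calls in N2 of ptr-6 (0.32) and ptr-23 (0.22) did not hold with some single libraries left out. That of ptr-6 was lost without N2 control replicate 2 (0.33) or 3 (0.30) or elt-2 replicate 2 (0.26), and that of ptr-23 without N2 control replicate 3 (0.18).

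**Figure D3:**
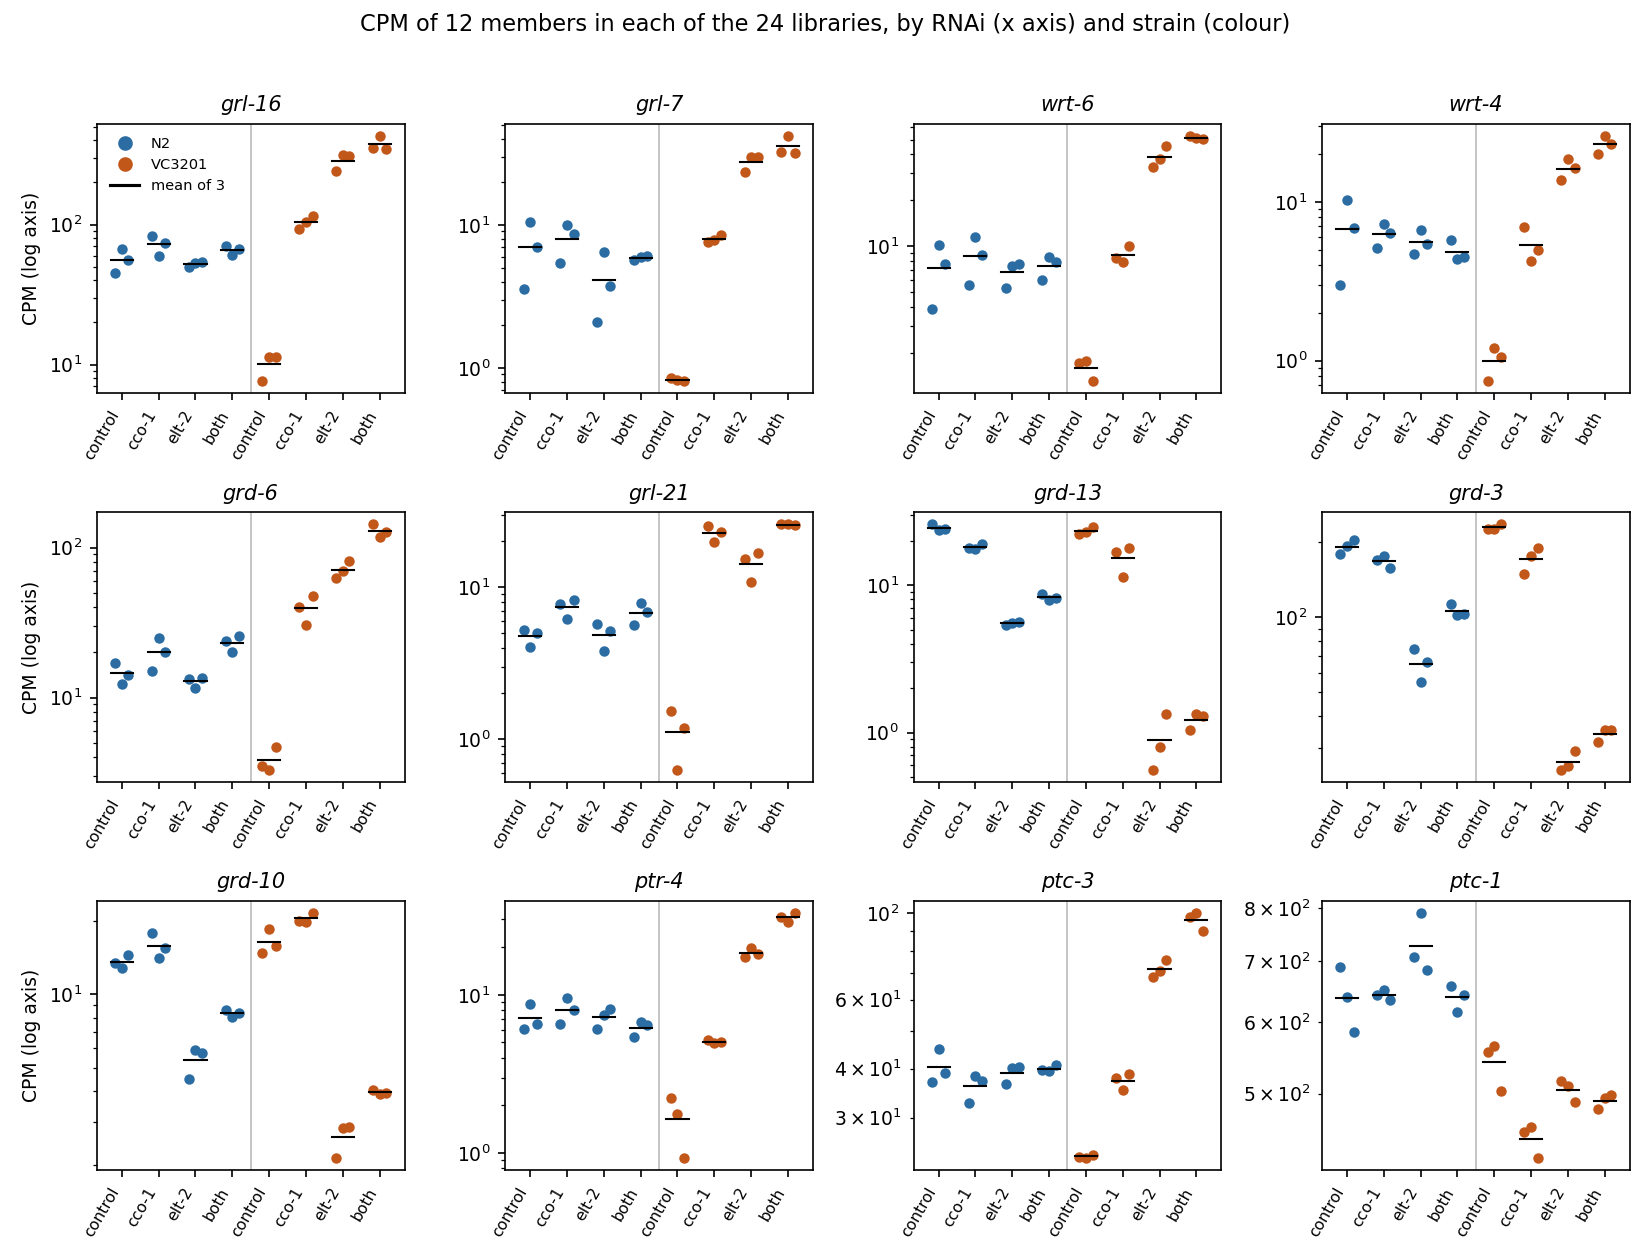
CPM (log axis, a separate range in each panel) of 12 genes in each of the 24 libraries, by RNAi group, with N2 in blue and VC3201 in orange and the mean of 3 replicates as a black line. The gene grl-16 spans 7.63 to 430 CPM across VC3201 and 45.1 to 83.0 CPM across N2, while grd-13 falls to 0.560 to 1.33 CPM on elt-2 RNAi and 1.03 to 1.33 CPM on both RNAi in VC3201.

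Of the Patched-related genes, with elt-2 RNAi in VC3201, 14 of 22 rose, 3 fell, and the family median was 0.38. Of all tested genes, 36.4% were higher and 49.4% lower there. The 14 include ptr-10 and ptr-17, which passed the filter only through VC3201 groups with elt-2 RNAi. The largest change was that of ptr-4, from 2.24, 1.77 and 0.929 CPM to 17.3, 19.6 and 18.0 CPM (log2 change 2.90), with 6.12, 8.76 and 6.55 CPM and then 6.04, 7.49 and 8.11 CPM in N2. The N2 groups overlapped and the VC3201 groups did not.

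The Patched homolog ptc-3, known for roles in epidermal growth and lipid transport, stood at 37.1, 44.9 and 39.0 CPM in N2 on control and at 23.9, 23.7 and 24.1 CPM in VC3201. On elt-2 RNAi it reached 68.7, 71.0 and 75.9 CPM in VC3201 (log2 change 1.55, limma adjusted p = 1.58e-18), and in N2 it read 36.6, 40.2 and 40.4 CPM (log2 change -0.04, adjusted p = 0.629). The interaction with strain was 1.59. The level of ptc-1 was between 425 and 791 CPM over all 24 libraries. It read 517, 510 and 489 CPM on elt-2 RNAi and 556, 564 and 503 CPM on control in VC3201, groups that overlapped (log2 change -0.10, adjusted p = 0.115). Without VC3201 control replicate 3 that decrease was called (-0.15, limma adjusted p = 0.0271), and with the quantile normalization partly undone as well (-0.17). In N2 ptc-1 changed by 0.19, a call lost without N2 control replicate 3 or elt-2 replicate 2 (0.13 in each case). The interaction of elt-2 RNAi and strain was called lower for ptc-1 (-0.29, limma adjusted p = 0.00261).

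The most abundant Patched-related gene, ptr-2, went the other way. Its CPM in VC3201 was 265, 255 and 267 on control and 128, 124 and 132 on elt-2 RNAi (log2 change -1.03), while in N2 it was 298, 267 and 272 on control and 284, 289 and 270 on elt-2 RNAi (log2 change 0.01). The interaction was -1.04 (SE 0.0713, limma adjusted p = 3.99e-13). The level was thus lowered in every VC3201 library with elt-2 RNAi and within the control range in N2.

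The next comparison concerned cco-1 RNAi alone, the mitochondrial stress of the study. In N2, 6 members (10.7%) were higher and 10 (17.9%) lower, with 17.5% of all tested genes higher and 16.4% lower. Medians were -0.05 for the members and 0.01 for all tested genes. The 6 raised members were grl-21 (0.55), grl-10 (0.54), grl-14 (0.44), wrt-9 (0.42), grd-6 (0.42) and grl-16 (0.37), none of them a Patched-like gene. The lowered members with the largest changes were grd-4 (-0.67), ptr-24 (-0.62), grl-22 (-0.54), ptr-19 (-0.43), wrt-8 (-0.43) and ptr-21 (-0.42). The gene grl-10 overlaps the ribosomal protein gene rpl-39, and grl-14 the gene sbt-1.

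Several of these calls were lost with single libraries left out, in some cases with a change no smaller than with all libraries. Without N2 control replicate 3, 10 members were called in place of 16, 2 higher and 8 lower. The call of grl-14 was lost without that library (0.36), and that of wrt-9 without it (0.43), N2 control replicate 1 (0.31) or cco-1 replicate 2 (0.31). Those of grl-16 and grd-6 were each lost without any 1 of 4 libraries. For grl-16 these were control replicates 1 (0.23) and 3 (0.38) and cco-1 replicates 1 (0.27) and 3 (0.35), and for grd-6 control replicates 2 (0.32) and 3 (0.41) and cco-1 replicates 2 (0.25) and 3 (0.40). The calls of ptr-19 (-0.34) and wrt-8 (-0.33) were lost without N2 control replicate 2.

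In VC3201, cco-1 RNAi raised 29 members and lowered 12, where 26.9% of all tested genes were higher and 37.1% lower. With the quantile normalization partly undone the split was 37 higher and 8 lower, where 33.9% of all tested genes were higher and 37.5% lower. The medians were 0.30 for the members and -0.06 for all tested genes. The gene grl-16 rose to 92.4, 105 and 115.3 CPM (log2 change 3.26), still below its level with elt-2 RNAi. The groundhog gene grd-6 rose to 40.2, 30.4 and 47.4 CPM (3.05), grl-7 to 7.55, 7.86 and 8.53 CPM (2.29) and wrt-6 to 8.36, 7.86 and 9.96 CPM (1.90). The levels of grl-7 and wrt-6 thereby came within the range of the N2 control libraries.

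The warthog gene wrt-8, linked like grl-16 to axon guidance, was at 0.0220, 0.343 and 0.299 CPM in VC3201 on control, which rested on 0, 3 and 2 reads. With cco-1 RNAi it stood at 3.64, 4.26 and 3.87 CPM (log2 change 2.02), above the 0.988 to 1.68 CPM of N2 on control. In N2 the same RNAi lowered it by 0.43. The largest decreases in VC3201 were those of grd-4 (-1.43), grl-8 (-0.73) and grd-13 (-0.59). The decrease of grl-22 (-0.48) was lost without VC3201 control replicate 1 (-0.30).

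Tested as the interaction of cco-1 RNAi and strain, 23 members had a higher and 4 a lower response in VC3201 than in N2, with 16.8% and 23.2% of all tested genes. The largest were grl-21 (2.96), grl-16 (2.89), grd-6 (2.63) and wrt-8 (2.45). The 4 lower ones were grd-4 (-0.76), ptr-2 (-0.39), ptc-1 (-0.29) and grd-5 (-0.25).

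The ground-like gene grl-21 and the Patched-related gene ptr-24 are known as a ligand-like and receptor-like pair in lipid metabolism. The gene grl-21 (WBGene00001730, chrIV:10737474-10738191) read 5.22, 4.03 and 4.99 CPM in N2 on control and 7.80, 6.20 and 8.28 CPM on cco-1 RNAi (log2 change 0.55, SE 0.155, limma adjusted p = 0.00655). In VC3201 it went from 1.53, 0.630 and 1.18 CPM to 25.4, 19.7 and 23.1 CPM (log2 change 3.51, limma adjusted p = 2.28e-17). On elt-2 RNAi alone it stood at 15.3, 10.8 and 16.7 CPM in VC3201, below all 3 cco-1 libraries.

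The gene ptr-24 (WBGene00004238) fell in N2 with each single RNAi and was not called with either in VC3201. In N2 it read 41.3, 41.3 and 40.2 CPM on control, 23.95, 28.1 and 26.9 CPM on cco-1 RNAi (log2 change -0.62, limma adjusted p = 1.32e-08) and 29.2, 29.6 and 28.0 CPM on elt-2 RNAi (-0.49). In VC3201 it read 35.4, 34.0 and 38.5 CPM on control, 36.8, 35.2 and 35.6 CPM on cco-1 RNAi and 36.2, 34.0 and 32.8 CPM on elt-2 RNAi. The N2 groups were clearly apart and the VC3201 groups overlapped (limma adjusted p = 0.97 and 0.35). The interactions with strain were 0.62 (SE 0.0933) for cco-1 RNAi and 0.42 (SE 0.0933) for elt-2 RNAi, limma adjusted p = 6.18e-06 and 0.000216. With both RNAi in N2 it stood at 30.2, 27.5 and 32.0 CPM, with an interaction of the RNAi treatments of 0.66.

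Both RNAi against cco-1 RNAi measured the change with elt-2 RNAi in worms that were also on cco-1 RNAi. Whether the cco-1 response itself changed is the question of the interaction, given below for N2. In N2, adding elt-2 RNAi raised 3 members and lowered 13, where 17.6% of all tested genes were higher and 16.5% lower. With the quantile normalization partly undone the split was 5 higher and 11 lower, where 19.7% of all tested genes were higher and 17.0% lower. The medians were -0.11 for the members and -0.01 for all tested genes. The lower members were again led by groundhog genes, 7 of 10 of which fell, with grd-13 at -1.05, grd-10 at -0.84 and grd-4 at -0.80. Of the raised members of cco-1 RNAi, wrt-9 fell by 0.53, while grl-16 (-0.12) and grl-21 (-0.11) did not pass the test. The interaction of the RNAi treatments in N2 was called negative for 0 of 32 Hedgehog-related genes, wrt-9 among them. The higher members were ptr-22 (0.95), ptr-13 (0.24) and ptr-24 (0.18).

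Some of these calls did not hold with single libraries left out. That of ptr-13 was lost without cco-1 replicate 1 (0.18) or 2 (0.24) or replicate 2 (0.23) or 3 (0.21) of both RNAi. That of ptr-24 was lost without cco-1 replicate 1 (0.11) or 3 (0.19) or replicate 1 (0.17) or 3 (0.13) of both RNAi. The lower call of grl-5 (-0.70) was lost without cco-1 replicate 2 (-0.54) or 3 (-0.59) or replicate 1 (-0.67), 2 (-0.75) or 3 (-0.69) of both RNAi.

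In VC3201, both RNAi against cco-1 RNAi gave 38 higher and 12 lower members, where 36.5% of all tested genes were higher and 44.6% lower. The higher again include grd-12, ptr-10 and ptr-17, which passed the filter only through VC3201 groups with elt-2 RNAi. The lower include grl-17, which passed it only through VC3201 on cco-1 RNAi. With the quantile normalization partly undone, 42.5% of all tested genes were higher and 40.6% lower. On the deposited scale the medians were 0.58 for the members and -0.10 for all tested genes. The largest increases were those of the warthog genes wrt-2 (3.02), wrt-10 (2.88), wrt-1 (2.56) and wrt-6 (2.44), followed by ptr-4 (2.40). The gene wrt-2 went from 3.03, 1.22 and 3.01 CPM to 28.1, 23.4 and 26.1 CPM, and wrt-10 from 3.13, 3.04 and 2.74 CPM to 27.9, 29.7 and 27.2 CPM. Both reached their highest levels of all 8 groups there. The further change of grl-21 did not pass the test (log2 change 0.18, adjusted p = 0.281).

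The 12 lower members in VC3201 on both RNAi against cco-1 RNAi were led by grd-13 (-2.86), grd-3 (-2.29), grd-10 (-2.11) and ptr-2 (-1.02). Next came wrt-5 (-0.90) and grd-4 (-0.87), the last from 14 to 20 reads to 1 or 2 reads. The Patched gene ptc-3 rose to 97.5, 100 and 89.9 CPM (1.34). The increase of ptc-1 (0.14) was a call lost without cco-1 replicate 3 (0.10) or without replicate 2 (0.13) or 3 (0.13) of both RNAi. The call of the increase of ptr-24 (0.16) was lost without cco-1 replicate 2 (0.14) or 3 (0.15) or replicate 1 (0.14) or 3 (0.12) of both RNAi.

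In N2 the joint effect of the RNAi treatments could be tested against the sum of the single effects. The interaction was called for 9 members in the positive and 2 in the negative direction, with 7.09% and 5.95% of all tested genes. The groundhog genes grd-13 (0.93), grd-3 (0.90), grd-14 (0.66) and grd-5 (0.58) were less reduced by elt-2 RNAi when cco-1 RNAi was present. The gene grd-3 showed this in its levels, at 74.6, 54.9 and 66.2 CPM on elt-2 RNAi and 113, 103 and 103 CPM on both. The groups did not overlap, and both lay below the control range of 179 to 204 CPM. The Patched-related genes ptr-3 (-0.66) and ptr-6 (-0.56) had negative interactions.

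**Figure D4:**
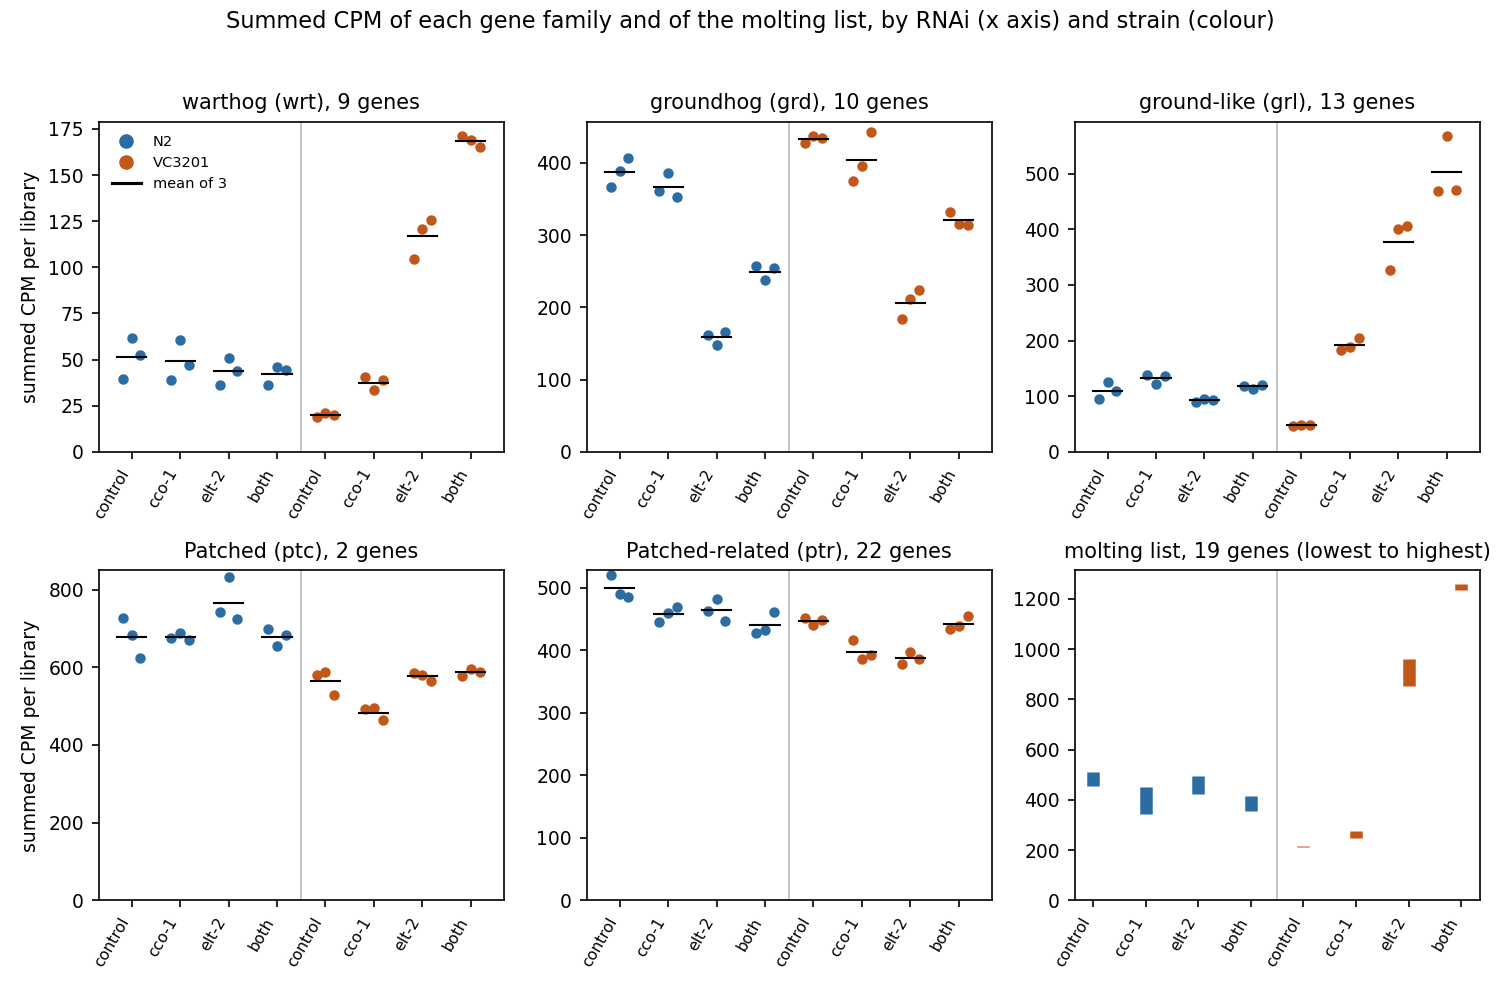
Summed CPM per library of each of the 5 gene families, and the range from the lowest to the highest of 3 libraries for 19 molting genes, by RNAi group, with N2 in blue, VC3201 in orange and the mean of 3 as a black line. The ground-like sum is 45.5 to 49.0 CPM in VC3201 on control and 469 to 567 CPM on both RNAi, and the molting genes lie at 212 to 218 CPM and 1235 to 1261 CPM in those groups.

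Summed over families, the warthog genes stood at 51.2 ± 11 CPM (SD, n = 3) in N2 on control, 19.9 ± 1.15 CPM in VC3201 on control, 117 ± 11.1 CPM in VC3201 on elt-2 RNAi and 168 ± 3.09 CPM on both. The groundhog sum was 387 ± 19.9 CPM on control and 158.5 ± 9.90 CPM on elt-2 RNAi in N2, and 433 ± 5.53 and 206.5 ± 19.96 CPM in VC3201. The Patched-related sum stayed between 377 and 520 CPM in all 24 libraries, although 14 of its 22 members rose and 3 fell with elt-2 RNAi in VC3201.

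Genes of the molting cycle and the apical matrix were counted beside the members. The shares over all tested genes are those given above for each comparison. Of 18 tested genes on that list, 15 were lower in VC3201 than in N2 on control (median -1.52), none higher. With elt-2 RNAi in VC3201 15 rose and 1 fell (median 2.32), and with both RNAi against cco-1 RNAi 17 rose (median 2.20). With cco-1 RNAi in VC3201 10 rose and 5 fell (median 0.30). On cco-1 RNAi in N2 the list had 1 higher and 7 lower genes (median -0.12). There, 4 ground-like genes were higher and 2 lower (median 0.23), and 1 warthog gene was higher and 2 lower (median -0.12). Of the groundhog genes 1 was higher and 3 were lower (median 0.01), and of the Patched-related genes 0 and 3 (median -0.09). With elt-2 RNAi in N2 1 molting gene was higher and 5 were lower (median -0.10). Their summed level was 457 to 511 CPM in N2 on control, 212 to 218 CPM in VC3201 on control, 248 to 278 CPM with cco-1 RNAi and 854 to 960 CPM with elt-2 RNAi in VC3201. Within the list, mlt-11, which encodes a protease inhibitor needed for molting, changed by -2.63 between strains and by 3.99 with elt-2 RNAi in VC3201. The nuclear receptor gene nhr-23, a driver of the molting cycle, changed by 0.02 and 0.06 in those comparisons, neither past the test.

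Other cell type markers were counted with elt-2 RNAi in VC3201, where 36.4% of all tested genes were higher and 49.4% lower. Of 8 adult cuticle and yolk genes, 5 fell and 3 rose with elt-2 RNAi in VC3201, and their summed level went from 57780 to 58140 CPM on control to 1486 to 1568 CPM. The yolk gene vit-5 fell to 4.39, 2.60 and 4.42 CPM there, from 11960 CPM in each control library, a value that normalization fixed by rank. Of the cuticle genes of that list, bli-1 (4.76), bli-2 (3.96) and col-7 (0.28) were called higher, unlike the yolk genes. The cuticle gene col-19 was called lower like the yolk genes, with a change of -0.17. The 8 neuronal markers summed to 394 to 425 CPM on control and 1049 to 1066 CPM on elt-2 RNAi in VC3201 (6 higher, 1 lower), and the 6 glial markers to 148 to 171 CPM and at most 242 CPM (5 higher, 1 lower). The 8 intestinal markers went from 5875 to 6918 CPM to 2359 to 2554 CPM (3 higher, 5 lower). The fall of that sum lay in asp-1, a protease gene, and the other 7 summed to 884 to 1102 CPM on control and 1334 to 1434 CPM on elt-2 RNAi. Gene by gene, elt-2, elt-7, ges-1 and vha-6 were called lower as well, and act-5, ifb-2 and pept-1 higher. The 6 body wall muscle markers went from 4737 to 4805 CPM to 5932 to 6352 CPM (4 higher, 1 lower), and the 9 germline and sperm markers from 4262 to 4406 CPM to 3052 to 3065 CPM (3 higher, 6 lower). No marker of these lists was at the lowest value of the table in any library. The part of developmental stage and of these tissues in the members' changes was not tested.

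Beyond the 56 members, 10 of 11 other genes of the Hedgehog pathway and of sterol-sensing proteins were tested. None was called with cco-1 RNAi in N2, where 17.5% of all tested genes were higher and 16.4% lower. With elt-2 RNAi in VC3201 7 rose and 2 fell (median 0.63), where 36.4% of all tested genes were higher and 49.4% lower. The gene qua-1, a Hedgehog-related gene needed for molting, read 1.32, 2.20 and 0.808 CPM on control and 19.4, 22.8 and 21.6 CPM on elt-2 RNAi in VC3201 (log2 change 3.23), and -0.34 was its change in N2 (adjusted p = 0.174). The gene ncr-1, a homolog of the cholesterol transporter NPC1, went from 11.6, 13.4 and 12.9 CPM to 104, 105 and 99.6 CPM in VC3201 (2.93) and also rose in N2, from 14.7, 16.5 and 14.3 CPM to 36.8, 36.2 and 36.5 CPM. The Patched-like sex determination gene tra-2 fell in VC3201 (-0.75).

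Some members varied widely between replicates. For wrt-4 on control in N2, replicate 2 was more than 3 times replicate 1 (10.3 against 2.99 CPM), and grl-7, wrt-6 and grl-5 differed in the same direction. On elt-2 RNAi, 41 of 56 members were higher in replicate 2 than in replicate 1, in N2 and in VC3201 alike. In N2 this count was 34 on control, 34 on cco-1 RNAi and 28 on both RNAi. In VC3201 it was 27, 24 and 33 in those groups. The share over all tested genes is not given, so the count cannot be read as particular to the members. The adult cuticle collagen gene bli-1 showed the same order of libraries on control, at 21.8, 55.7 and 38.1 CPM. The third elt-2 RNAi library of VC3201, in which elt-2 stood at 15.98 CPM, had member levels like those of the other 2 replicates, and without it 47 members were called in place of 48.

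In the authors' deposited table of genes raised by cco-1 RNAi, 5 members were listed, namely grl-10, grl-14, grl-16, grl-21 and wrt-9. The authors' deposited table of 517 ELT-2-dependent genes among them listed grl-10, grl-16 and wrt-9. That of 719 ATFS-1-dependent genes listed grl-14.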

How the data were processed

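Per the labels' protocols, polyA RNA was sequenced on a BGISeq500. The build WBcel235 and the tools edgeR 3.24.3 and STAR 2.73a are those of the submitters' processing notes; no read counter or annotation release is named in the sources at hand. The authors deposited CPM for 16927 genes, which the values show to be quantile-normalized: each library sums to 1000373, and sorted libraries agreed within 1% at 52.6% of ranks. Tied low values could be ranked back to reads for 60.9 to 70.3% of genes per library.

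Only the 14561 genes whose mean reached 1 CPM in any group were tested. Values were fitted as log2(CPM + 1) in 1 model of 8 group means with limma 3.58.1 in R 4.3.3, with an intensity trend and 16 residual degrees of freedom. The tests were 2-sided and adjusted by Benjamini-Hochberg over all tested genes of a comparison. The fit was also run on simulated data with far fewer changed genes than here. That run cannot show how the quantile normalization acts on these data. The members and gene lists were chosen with earlier results of these data known. Named were, per comparison, up to 6 raised and 6 lowered members with the largest called change, ptc-1, ptc-3, grl-21, ptr-24, the most abundant member of each family, and up to 3 genes of each list. Other genes, named for their position, for their calls in both strains, or as tra-2, nhr-23 and bli-1 from the lists, were chosen after their values were seen. Positions and exon lengths came from the Ensembl annotation of WBcel235. Alternatives were pseudocounts of 0.5 and 5, no filter, the replicate number as a block, only the groups compared, no intensity trend, each library left out, and the quantile normalization partly undone (reads ranked back where possible, 1 factor per library above them, libraries scaled by the median ratio of their genes).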

Additional observations from a re-analysis of the deposited data

Results flagged for a closer look

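Responses that differed between strains or between RNAi backgrounds, by a test of the difference in limma (log2 scale, adjusted over all tested genes), were the following.

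For the interaction of elt-2 RNAi and strain, 46 members were called. The response was higher in VC3201 for grl-16 (4.77), grl-7 (4.61), grd-6 (4.07), wrt-6 (3.94), grl-5 (3.47) and wrt-4 (3.21). It was lower in VC3201 for grd-13 (-1.72), grd-3 (-1.52), grd-10 (-1.06), grd-4 (-1.04), ptr-2 (-1.04) and wrt-5 (-0.62). With the quantile normalization partly undone, the call of wrt-5 was lost (-0.09).

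For the interaction of cco-1 RNAi and strain, 27 members were called. The response was higher in VC3201 for grl-21 (2.96), grl-16 (2.89), grd-6 (2.63), wrt-8 (2.45), grl-7 (2.06) and wrt-6 (1.65), and lower for grd-4 (-0.76), ptr-2 (-0.39), ptc-1 (-0.29) and grd-5 (-0.25). The call of grd-5 was lost without N2 control replicate 1 (-0.19) or 2 (-0.26), N2 cco-1 replicate 2 (-0.20), VC3201 control replicate 1 (-0.25) or 2 (-0.22), or VC3201 cco-1 replicate 1 (-0.20).

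For the interaction of cco-1 and elt-2 RNAi in N2, 11 members were called. The positive interactions were those of grd-13 (0.93), grd-3 (0.90), ptr-24 (0.66), grd-14 (0.66), ptr-1 (0.58) and grd-5 (0.58), and the negative ones those of ptr-3 (-0.66) and ptr-6 (-0.56). The call of ptr-1 was lost without N2 control replicate 2 (0.55) or 3 (0.57), cco-1 replicate 2 (0.54) or 3 (0.55), elt-2 replicate 1 (0.58), 2 (0.61) or 3 (0.55), or replicate 1 (0.50) or 2 (0.61) of both RNAi. That of ptr-6 was lost without N2 control replicate 3 (-0.53), cco-1 replicate 1 (-0.52) or 2 (-0.53), elt-2 replicate 2 (-0.49), or replicate 1 (-0.55), 2 (-0.55) or 3 (-0.57) of both RNAi.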

How the results depend on the processing

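No named change was reversed under the alternatives run. With each library left out in turn, the members called numbered 10 to 15 for cco-1 RNAi in N2 (16 with all libraries), 20 to 29 for elt-2 RNAi in N2 (25), 13 to 15 for both RNAi against cco-1 RNAi in N2 (16), 33 to 41 for cco-1 RNAi in VC3201 (41), 44 to 48 for elt-2 RNAi in VC3201 (48), 46 to 48 for both RNAi against cco-1 RNAi in VC3201 (50) and 30 to 37 between the strains on control (36). Over all tested genes, 7 of 84 pairs of libraries with the same replicate number had deviations correlated over 0.1, the highest at 0.15. A correlation over all tested genes cannot show whether a few members share an order of replicates. With the replicate number as a block, the members called in those comparisons numbered 16, 25, 16, 41, 49, 50 and 36. With the quantile normalization partly undone they were 13, 23, 16, 45, 53, 49 and 41. On that scale the median over all tested genes moved from -0.18 to -0.01 for elt-2 RNAi in VC3201 and from -0.13 to 0.04 for its interaction with strain. Of 158 named results, 11 lost and 4 gained a call there, among them a gain for ptc-1 with elt-2 RNAi in VC3201 (-0.17) and a loss for the interaction of elt-2 RNAi and strain of wrt-5 (-0.09), and the cause was not tested. Of the same 158, 7 lost a call with no intensity trend, 5 lost and 1 gained one with only the groups compared, 2 lost one with no filter, 1 with a pseudocount of 0.5, 1 with the replicate block and 0 with a pseudocount of 5. Values of grd-4 and wrt-8 under 0.5 CPM rested on few reads. The VC3201 control values of grl-5, grl-7, grl-21 and wrt-4 each rested on 15 reads or fewer.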
